A study of Mus musculus with 12 samples.

Results

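Gene expression was compared between the small vessels of the cerebellum and those of the cerebrum in mice that lack Notch3. The comparison rested on 6 of the 12 arrays of the series, the 3 knockout cerebellar and the 3 knockout cerebral ones. Each was chosen by its group label, and cerebellar and cerebral arrays were paired by replicate number. Arrays of a genotype with the same number were taken to come from 1 mouse, which no label states. All mice were C57BL/6 and 2 months old. On that reading, 3 Notch3 knockout mice each gave RNA from cerebral microvascular fragments and from cerebellar microvascular fragments. So did 3 littermate control mice with a wildtype genotype, whose 6 arrays are used here for comparison. RNA was measured on an array that reads each gene with 1 or more probe sets. No treatment is named in the labels. The sources used here do not give the making of the knockout line, the deleted stretch of Notch3 or the isolation of the fragments.

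Small brain vessels consist of an endothelial tube that forms the blood-brain barrier, wrapped by smooth muscle cells on arterioles and by pericytes on capillaries, which are together called mural cells. A basement membrane surrounds them, and the end-feet of astrocytes cover it. Notch3 is a receptor of mural cells that is cut by a protease after it binds a ligand on a neighbouring cell, which frees a fragment that acts on transcription in the nucleus. Vessel fragments can carry cells and cell parts that adhere to them, such as glial end-feet, microglia, fibroblasts of the perivascular space and nerve endings.

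Values are log2 expression levels made by the authors with GCRMA, a method that corrects background and puts arrays on a common scale. The median of all values was 3.27, and a gene at or under it is called dim here. A gene is said to be called where the adjusted p of a limma fit, with the mouse as a block, lay below 0.05 over all 11716 genes tested. Each SE is the moderated standard error of that fit to all 12 arrays. It is shared by both genotypes and is not the spread of the 3 knockout pairs. Array medians ranged from 3.24 to 3.30. The 3 arrays of a knockout group correlated with r from 0.991 to 0.996 across genes, and arrays of different regions with r from 0.979 to 0.991. Along the first principal component of the 6 knockout arrays, which held 56.0% of their variance, the cerebral arrays lay at -30.6, -4.59 and -23.0 and the cerebellar arrays at 11.9, 29.1 and 17.2, so the regions did not overlap and mouse 2 was displaced in the same direction in both. Mouse 2 also carried Eif2s3y, a gene of the Y chromosome, at 11.0 and 11.2 in its regions, while the other knockout mice read 3.04 to 3.08 in theirs. Results are also given with 1 knockout mouse left out. Such fits called fewer genes whichever mouse was left out, so a lost call need not mean that a value turns on that mouse.

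Notch3 itself was near or below 3.27 in knockout vessels of both regions. The brighter of its probe sets read 2.48, 2.48 and 3.15 in the cerebral arrays of mice 1, 2 and 3 and 3.15, 3.58 and 2.48 in their cerebellar arrays, against 10.84 to 12.02 in the 6 control arrays. The other probe set read 2.21 to 3.76 in the knockout and 6.74 to 8.21 in controls. The 12 arrays matched their genotype labels. The regional difference of Notch3 in the knockout was 0.37 over 3 mice (SE 0.31) and was not called (adjusted p = 0.51).

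The label of vessel fragments was checked against markers of endothelium and smooth muscle, which do not tell the regions apart. In knockout cerebellar arrays the mean levels of Cldn5, the main tight junction claudin of brain endothelium, of Slc2a1, the glucose transporter of the barrier, and of Acta2, the actin of smooth muscle, were 14.9, 16.0 and 14.4. The same genes stood at 14.9, 16.0 and 14.3 in cerebral arrays.

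Regional differences were widespread in knockout vessels. Limma called 1723 of 11716 genes (14.7%), of which 996 (8.5%) were higher and 727 (6.21%) lower in cerebellar vessels, and 381 (3.25%) were called with a difference over 2-fold, 219 of them higher (1.87%) and 162 lower (1.38%). The groups of 3 arrays did not overlap for 2976 genes (25.4%), and all 3 pairs differed in 1 direction for 5947 (50.8%). Counts of called list members are to be read against these shares of all genes, 8.5% higher and 6.21% lower. The median difference over all tested genes was 0.00, and the median SD of the 3 pairs was 0.12. Without the mouse block 797 genes were called. Leaving out mouse 1 or mouse 3 left 848 and 855 calls, and leaving out mouse 2 left 1217.

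The largest differences fell on genes of very different functions. Dlk1, a membrane protein that acts as a non-canonical Notch ligand, read 3.12, 3.23 and 3.10 in the cerebral arrays and 7.71, 8.36 and 7.80 in the cerebellar arrays of mice 1, 2 and 3. All cerebral arrays were dim and all cerebellar arrays stood far above them. The difference was 4.80 (SE 0.37, adjusted p = 0.00102), at least 25.7-fold when the dim arrays are raised to 3.27. Ddn, which encodes the postsynaptic protein dendrin of forebrain neurons, ran the other way, with 6.20, 7.82 and 7.87 in cerebral arrays against 2.29, 2.33 and 2.92 in cerebellar ones. The difference of -4.79 (SE 0.55, adjusted p = 0.00248) came to at least 16.3-fold with the dim cerebellar arrays at 3.27.

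Among the 15 genes with the largest positive difference, several serve signalling at synapses. Gabra6, the GABA-A receptor subunit typical of cerebellar granule cells, read 3.88, 3.82 and 3.81 in cerebral and 6.62, 6.49 and 6.38 in cerebellar arrays, a difference of 2.66 (SE 0.10, adjusted p = 0.00036) with hardly any spread among mice. The AMPA-type glutamate receptor subunits Gria4 (2.79, SE 0.31) and Gria1 (2.34, SE 0.24) were higher, and so was Frrs1l (3.23, SE 0.23), whose product accompanies AMPA receptors during their assembly. Another probe set of Gria1 gave 2.64 and another of Frrs1l 1.92. Pvalb, the calcium buffer parvalbumin of Purkinje cells and interneurons, was higher by 2.70 (SE 0.20), at least 3.19-fold with all cerebral arrays dim.

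Others in that group act in metabolism, hormone action or inflammation. Hsd11b1, the enzyme that regenerates active glucocorticoid, was higher by 2.81 (SE 0.38), with pairs that ranged from 1.79 to 3.57. The membrane dipeptidase gene Dpep1 was higher by 3.52 (SE 0.48), the fatty acid-binding protein gene Fabp3 by 3.04 (SE 0.24) and Mrap2, an accessory protein of melanocortin receptors, by 3.04 (SE 0.28). The chemokine Cxcl2 (4.25) and the NF-kappaB regulator Nfkbid (3.32) are described with their families. Also higher were the matrix phosphoprotein gene Dmp1 (2.69, SE 0.19, and 2.78 with another probe set), the homeobox gene Zfhx4 (2.52, SE 0.14) and Gdf10, a growth factor of the BMP family made by Bergmann glia (2.43, SE 0.40). Gdf10 was not called without mouse 1 or without mouse 3.

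Of the 15 genes with the largest negative difference, several mark myeloid cells. Slc2a5, the fructose transporter that microglia carry in brain, read 10.16, 8.99 and 9.79 in cerebral and 7.89, 7.19 and 7.69 in cerebellar arrays, with no overlap and a difference of -2.05 (SE 0.13, adjusted p = 0.000655). Cd300a, an inhibitory receptor of myeloid cells, differed by -2.23 (SE 0.14), and the microglial lectin gene Siglech by -1.97 (SE 0.15). Bank1, a scaffold protein of B-cell signalling, was at -2.24 (SE 0.12), the organic anion exporter gene Abcc3 at -2.19 (SE 0.25) and Ptger3, a receptor of prostaglandin E2, at -2.32 (SE 0.30).

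Neuronal and epithelial genes also appeared among them. Hpcal4, a calcium sensor of neurons, differed by -2.56 (SE 0.44, with 2 of 3 cerebellar arrays dim), Kif5a, a kinesin of axonal transport, by -2.11 (SE 0.41) and Nrsn1, a vesicle protein of neurons, by -2.22 (SE 0.57). Upk1b, a uroplakin first known from urothelium, differed by -3.07 (SE 0.25), and its 4 probe sets ranged from -4.23 to -1.61. The lipase gene Liph was at -2.97 (SE 0.40), Glrp1 at -2.38 (SE 0.10), Susd3 at -2.01 (SE 0.42) and Ccdc88b at -2.08 (SE 0.33), at least 2.51-fold lower with all cerebellar arrays dim. Calls were lost without mouse 3 for Hpcal4 and Ccdc88b, without mouse 2 or 3 for Kif5a, without mouse 1 or 3 for Susd3, and when any 1 knockout mouse was left out for Nrsn1.

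**Figure D1:**
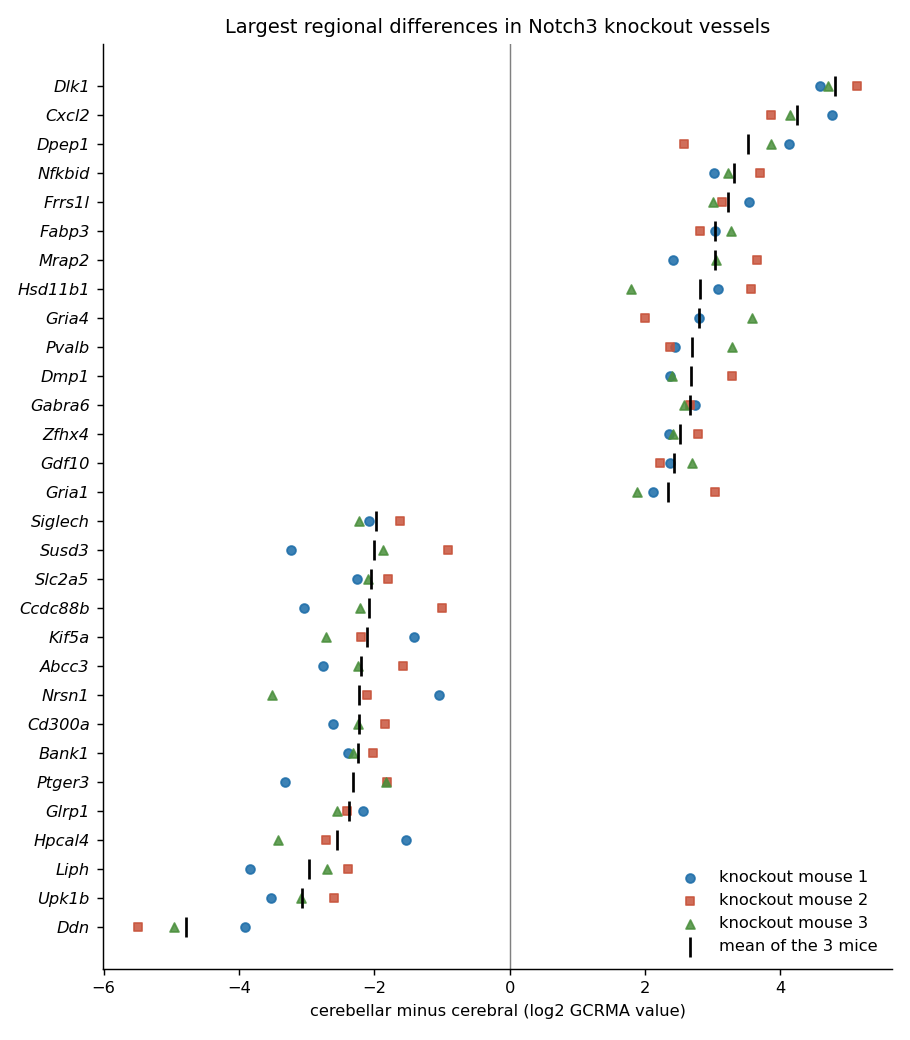
Cerebellar minus cerebral difference (log2, horizontal axis) of the 15 genes with the largest positive and the 15 with the largest negative called difference, by knockout mouse (symbols), with the mean of the 3 mice (bar). All pairs of a gene lie on 1 side of 0, from Dlk1 at 4.80 to Ddn at -4.79, and the pairs of Susd3, Nrsn1 and Ccdc88b are the more widely spread among the lower genes.

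Microglia, the resident immune cells of brain tissue, were represented by markers that were lower throughout. All 24 tested markers of 25 listed were called lower in cerebellar vessels, against 6.21% of all genes, with a median difference of -1.17. P2ry12, a purine receptor of resting microglia, read 13.69, 12.79 and 13.45 in cerebral and 11.85, 11.33 and 11.53 in cerebellar arrays, a difference of -1.74 (SE 0.14, adjusted p = 0.00102). The lipid-sensing receptor gene Trem2 read 10.18, 9.51 and 10.10 against 8.15, 7.93 and 8.47, a difference of -1.74 (SE 0.16), although another, dim probe set of Trem2 gave 0.06 and was not called. In both genes each cerebral array stood above each cerebellar one, and mouse 2 was the lowest of the cerebral arrays. Gpr34, a receptor for lysophosphatidylserine, was at -1.70 (SE 0.14), and the smallest differences were those of Csf1r (-0.30), the receptor on which microglia depend, and the protease gene Ctss (-0.24), which both lost their calls when any 1 knockout mouse was left out.

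The summed level of the microglial markers (log2 of their added linear values) was 17.6 to 18.1 in knockout cerebral and 17.1 to 17.2 in knockout cerebellar arrays. The groups did not overlap, and the cerebellar arrays were the more alike. In bulk RNA such as this, fewer cells of a type and less RNA per cell cannot be told apart. Without mouse 1 or without mouse 3, 18 markers were called, and without mouse 2, 22. In control mice 11 of the 24 were called lower, with a median of -0.55.

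Most Toll-like receptors, a family grouped after its values were seen, were lower too. Of 6 Toll-like receptors, which detect microbial molecules, 5 were called lower, against 6.21% of all genes. Tlr1 was at -1.67 (SE 0.18), Tlr7 at -1.34, Tlr13 at -1.32, Tlr4 at -0.79 and Tlr2 at -0.33, while Tlr3 differed by -0.05 and was not called. Tlr2 lost its call without mouse 1 or without mouse 3. The part that the microglial level given above plays in these values was not tested. P2ry6, a nucleotide receptor in the list of vasoactive receptors, was at -1.58 (SE 0.14). Markers of perivascular macrophages, a related cell type at the vessel wall, had a median of 0.12. Of 9, 1 was called lower, the scavenger receptor Stab1 (-0.30), against 6.21% of all genes. Stab1 was not called when any 1 knockout mouse was left out. Among 7 leukocyte markers Lsp1 (0.36) was called higher and Cd79b (-0.82) lower, and neither was called without mouse 1 or without mouse 3. None of the 3 tested red blood cell and platelet genes was called by limma, and the summed level of that list was 5.53 to 5.73 in cerebral and 5.56 to 6.52 in cerebellar arrays.

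**Figure D2:**
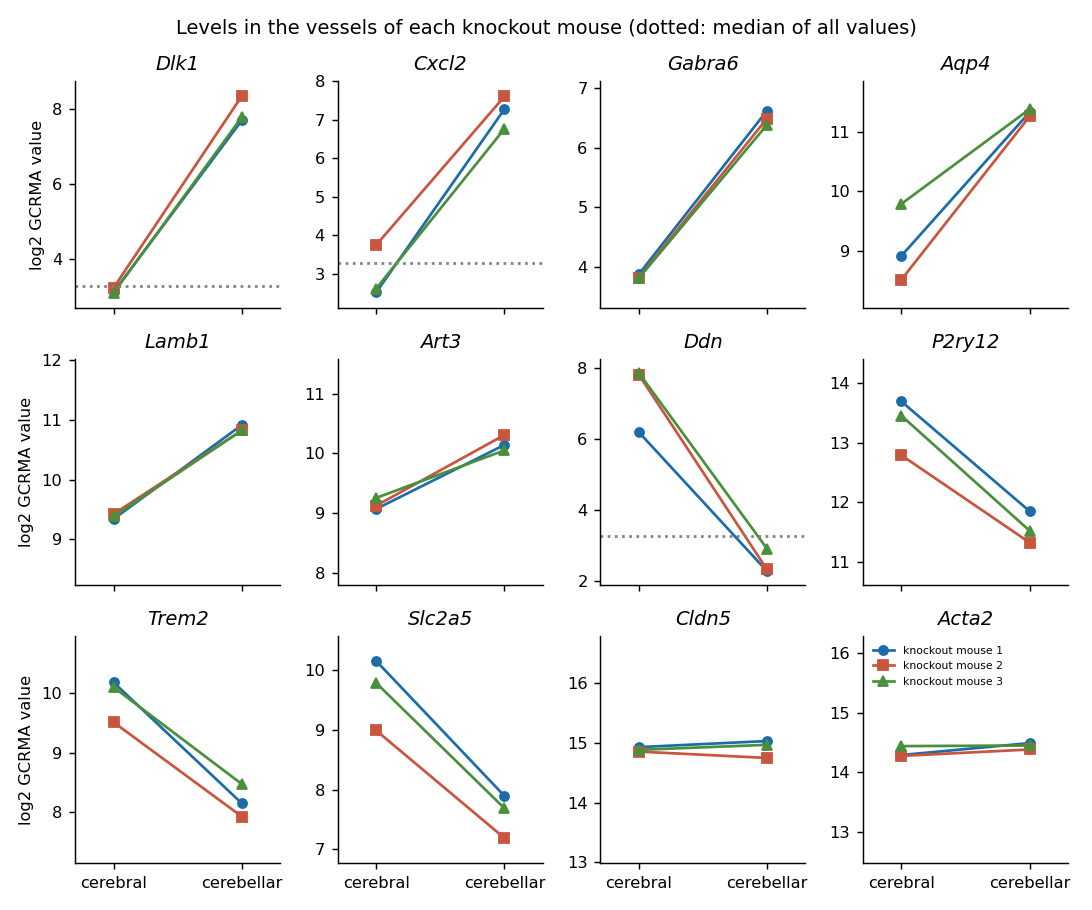
Levels (log2 GCRMA value, vertical axis) of 12 genes in the cerebral and cerebellar arrays of each knockout mouse, joined by a line per mouse, with a dotted line at the median of all values (3.27) where it is in range. Dlk1, Cxcl2, Gabra6, Aqp4, Lamb1 and Art3 are higher in every cerebellar array, Ddn, P2ry12, Trem2 and Slc2a5 are lower in every one, and Cldn5 and Acta2 overlap between regions.

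Not every immune transcript was lower. Chemokines draw leukocytes along a gradient, and NF-kappaB is a transcription factor that switches on many of them after inflammatory or mechanical stimuli. The promoters of 2 neighbouring chemokine genes that were both higher in cerebellar vessels are shown with matches to the NF-kappaB letters (GGG, any 2 bases, then TTTCC) in capitals, searched on both strands. The promoter of C1qc, a complement gene of microglia that was lower, is shown too. It has a match to GAGGAAGT, the core letters bound by PU.1, a transcription factor of myeloid cells. C1qc was the only microglial marker, of 19 with a promoter in the table, to hold these letters, so it does not stand for the others. The sequences are the 250 bases before the start of each gene in the RefSeq promoter table of build GRCm38.p6, at chr5:90890995-90891244 (plus strand), chr5:90903649-90903898 (plus strand) and chr4:136892915-136893164 (minus strand).
Cxcl1: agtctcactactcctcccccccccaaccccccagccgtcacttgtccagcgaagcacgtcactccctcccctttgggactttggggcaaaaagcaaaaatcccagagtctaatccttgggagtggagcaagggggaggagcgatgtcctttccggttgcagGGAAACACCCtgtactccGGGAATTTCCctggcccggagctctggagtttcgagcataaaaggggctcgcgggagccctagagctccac
Cxcl2: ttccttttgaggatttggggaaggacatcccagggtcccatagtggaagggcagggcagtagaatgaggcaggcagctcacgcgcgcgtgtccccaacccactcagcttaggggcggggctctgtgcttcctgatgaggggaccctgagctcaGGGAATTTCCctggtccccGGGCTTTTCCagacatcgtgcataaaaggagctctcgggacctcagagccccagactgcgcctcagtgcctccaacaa
C1qc: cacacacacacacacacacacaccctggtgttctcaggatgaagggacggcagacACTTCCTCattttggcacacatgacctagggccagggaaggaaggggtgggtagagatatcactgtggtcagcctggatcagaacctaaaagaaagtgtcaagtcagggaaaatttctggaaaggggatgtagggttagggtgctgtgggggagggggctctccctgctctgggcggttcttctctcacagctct

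The matches began at -89 and -71 relative to the start of Cxcl1, at -97 and -78 for Cxcl2 and at -195 for C1qc. The upstream match of Cxcl1 and the match of C1qc lay on the reverse strand, so their capitals are the reverse complement of the letters searched. The NF-kappaB letters were found in 1.41% of 32851 promoters, in 1.73% of the 9498 tested genes with a promoter, in 2.28% of the 790 genes called higher that have a promoter in the table, in 2.02% of the 595 called lower and in 4 of 12 chemokine genes (Ccl9, Cxcl1, Cxcl2 and Cxcl3). The PU.1 letters were found in 2.44% of promoters, in 2.92% of the tested genes, in 2.53% of the genes called higher, in 5.04% of those called lower and in 1 of 19 microglial markers (C1qc). A match describes letters and not a site in use.

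Cxcl2, which attracts neutrophils, read 2.52, 3.75 and 2.61 in cerebral arrays and 7.27, 7.60 and 6.76 in cerebellar ones, a difference of 4.25 (SE 0.25, adjusted p = 0.000655), or 13.8-fold once the 2 dim cerebral arrays are raised to 3.27. Its neighbour Cxcl1 read 7.17, 7.32 and 7.43 against 9.61, 9.37 and 9.15, a difference of 2.07 (SE 0.13, adjusted p = 0.000655). Both were higher in the cerebellar array of every knockout mouse. Among 15 chemokine ligands, grouped after their values were seen, 4 were called higher and 2 lower. Ccl3, a chemokine for monocytes and T cells, was higher by 2.24 (SE 0.26) and Ccl12 by 0.94 (SE 0.14), while Ccl6 (-1.08, SE 0.11) and Ccl9 (-1.11, SE 0.19) were lower. Cxcl3, which holds the same promoter letters, differed by 0.01 and was not called. It lay near background in all knockout arrays, at 3.28 to 3.37, so its value does not describe a gene that was measured well. Ccl12 and Ccl9 lost their calls without mouse 1, and Ccl9 also without mouse 3.

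Cytokine and NF-kappaB genes, also grouped after their values were seen, showed a mixed pattern. Il1b, the fever cytokine interleukin-1 beta, read 4.74, 4.64 and 4.44 in cerebral and 7.22, 7.21 and 6.37 in cerebellar arrays, a difference of 2.33 (SE 0.21, adjusted p = 0.00137). Of 9 interleukin genes 3 were called higher, the others being the alarmin Il33 (1.88, SE 0.17) and Il34 (0.78, SE 0.08), a ligand of Csf1r. Il16 (-1.32, SE 0.18) and Il18 (-0.42, SE 0.06) were called lower. Among 9 NF-kappaB subunits and inhibitors, Nfkbid (3.32, SE 0.27), Nfkbiz (1.74, SE 0.12) and Tnfaip3 (0.31) were higher and Nfkbie (-0.34) was lower. Tnfaip3 lost its call without mouse 1 or 3 and Nfkbie without mouse 1 or 2, so that 2 were called without mouse 1. The subunits Rela (-0.08), Relb (0.17) and Nfkb2 (0.48) were not called.

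Immediate early genes, which respond within minutes to stimuli that include tissue handling, were higher as well. Of 30 listed genes of this kind and heat shock genes, all tested, 18 were called higher, against 8.5% of all genes, and 0 lower, with a median of 0.51. Fosb read 2.73, 2.64 and 2.72 in cerebral and 4.63, 5.11 and 5.03 in cerebellar arrays, a difference of 2.23 (SE 0.24), at least 3.15-fold. All its cerebral arrays were dim. Egr2 (1.65, SE 0.36), the heat shock gene Hspa1a (1.49, SE 0.15), which has a near-identical copy that the array may not tell apart, and Junb (1.40, SE 0.14) followed, and Egr2 was not called without mouse 1 or without mouse 2. Their summed level was 17.1 to 17.2 in cerebral and 17.7 to 17.8 in cerebellar arrays, and whether it bears on the chemokine and NF-kappaB values was not tested. In controls 15 of the 30 were called higher, with a median of 0.49, and 1 lower. That gene, Egr3, named after its values were seen, was at -0.90 in controls and -0.01 in the knockout, and the difference between genotypes was not called (adjusted p = 0.171 by limma).

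Class II antigen presentation split in opposite directions among 9 genes grouped after their values were seen. The invariant chain gene Cd74 (1.17, SE 0.10), H2-Eb1 (1.07, SE 0.10), H2-Aa (0.97, SE 0.16) and H2-Ab1 (0.92, SE 0.07), which encode the peptide receptor and its chaperone, were higher. H2-Oa (-1.70, SE 0.21), H2-Ob (-0.81, SE 0.16) and H2-DMa (-0.77, SE 0.06), which govern peptide loading, were lower. Without the mouse block 1 of these 7 was called. H2-Aa lost its call without mouse 1 and H2-Ob without mouse 1 or 3. Among 25 interferon-response and class I genes 3 were called, against 14.7% of all genes: Ifi27l2a (0.53) and Oas1a (0.30) were higher and the proteasome subunit Psmb8 (-0.31) was lower. The last 2 lost their call without mouse 1 or without mouse 3, and Psmb8 also without mouse 2. With the mouse as a random block 1 gene of this list was called, and without the block limma called 0, with 2 at an unadjusted p below 0.05.

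No general endothelial marker was called in the knockout. Limma called 0 of 30 general endothelial genes, with a median of -0.03 and differences from -0.22 to 0.27. The unadjusted p was below 0.05 for 4 of them, and the smallest belonged to Tie1, an endothelial receptor tyrosine kinase, which read 10.95, 10.80 and 10.85 in cerebral and 10.66, 10.67 and 10.63 in cerebellar arrays (difference -0.21, SE 0.06, adjusted p = 0.0529). Among 34 blood-brain barrier genes 2 were called, against 14.7% of all genes, and the median was 0.02. The insulin receptor gene Insr was higher (0.46, SE 0.07) and the lactate transporter gene Slc16a1 was lower (-0.32, SE 0.06). Slc16a1 was not called without mouse 1 or without mouse 2. The summed endothelial level was 18.5 in each cerebral array and 18.4 to 18.6 in cerebellar arrays.

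Arterial and venous endothelium was read from lists of its own. Of 26 arterial genes 3 were called, against 14.7% of all genes: the connexin gene Gja4 was higher (0.45, SE 0.09) and the endothelins Edn1 (-0.33, SE 0.06) and Edn3 (-0.34, SE 0.09) were lower. No arterial gene was called without mouse 2, and 2 and 1 were called without mouse 1 and mouse 3, and Gja4 was lost each time. Without the mouse block limma called 0 of them, with 2 at an unadjusted p below 0.05. Of 17 venous genes 1 was called, the chemokine-binding receptor Ackr1 (-0.65, SE 0.12), whose levels of 9.05, 11.31 and 9.63 in cerebral and 8.44, 10.67 and 8.92 in cerebellar arrays overlapped, with mouse 2 the highest in both regions. It lost its call when any 1 knockout mouse was left out.

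Pericyte markers were higher in cerebellar vessels. Of 26 tested genes of 29 listed, 18 were called higher and 0 lower, against 8.5% of all genes called higher, with a median of 0.67. Art3, an enzyme-like surface protein of pericytes, read 9.07, 9.12 and 9.25 in cerebral and 10.14, 10.31 and 10.05 in cerebellar arrays, a difference of 1.02 (SE 0.08, adjusted p = 0.00102). Pdgfrb, the receptor through which endothelium recruits pericytes, read 13.43, 13.35 and 13.32 against 14.07, 14.04 and 13.96 (difference 0.66, SE 0.06, adjusted p = 0.00137). In both genes the regions did not overlap and the mice lay close together. Ndufa4l2, a mitochondrial protein (1.07, SE 0.12), Rarres2, the chemoattractant chemerin (0.97, SE 0.07), and the transporter-like ATPase gene Atp13a5 (0.95, SE 0.08) were also higher, whereas Rgs5 (0.08), a regulator of G-protein signalling and one of the brightest pericyte genes, was not called. The count was 16 to 18 when 1 knockout mouse was left out, and 17 in controls, with a median of 0.51.

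Among smooth muscle markers, 5 of 33 tested genes were called higher, against 8.5% of all genes, and 0 lower, and the median was 0.16. Casq2, the calcium-binding protein calsequestrin of the sarcoplasmic reticulum, read 7.68, 7.53 and 6.93 in cerebral and 8.95, 9.21 and 8.64 in cerebellar arrays, a difference of 1.55 (SE 0.09, adjusted p = 0.000655). Kcnmb1, the beta subunit of the large-conductance potassium channel (0.85, SE 0.13), the integrin gene Itga8 (0.83, SE 0.10), Hspb1 (0.31) and Cald1 (0.21) were the other calls, and Hspb1 and Cald1 lost their calls when any 1 knockout mouse was left out. Contractile genes such as Acta2 (0.11), Myh11 (0.36) and Tagln (0.04) were not called.

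Among 24 tested ion channel and calcium-handling genes of smooth muscle, 6 were called higher and 2 lower, against 8.5% and 6.21% of all genes. Kcnj8, the pore subunit of the vascular ATP-sensitive potassium channel and a pericyte marker, was higher by 0.92 (SE 0.08). The background potassium channel gene Kcnk6 was at -1.08 (SE 0.09), and Kcnma1, which encodes the pore that Kcnmb1 regulates, was at -1.05 (SE 0.16), while another, dim probe set of Kcnma1 gave 0.01. Of 16 vasoactive receptors 5 were higher and 2 lower, against 8.5% and 6.21% of all genes, and 4 were called without mouse 1. The higher ones included Npr3, which clears natriuretic peptides (1.02, SE 0.10), and the serotonin receptor gene Htr1b (0.75, SE 0.11), and the lower ones were Ptger3 and P2ry6, both given above.

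**Figure D3:**
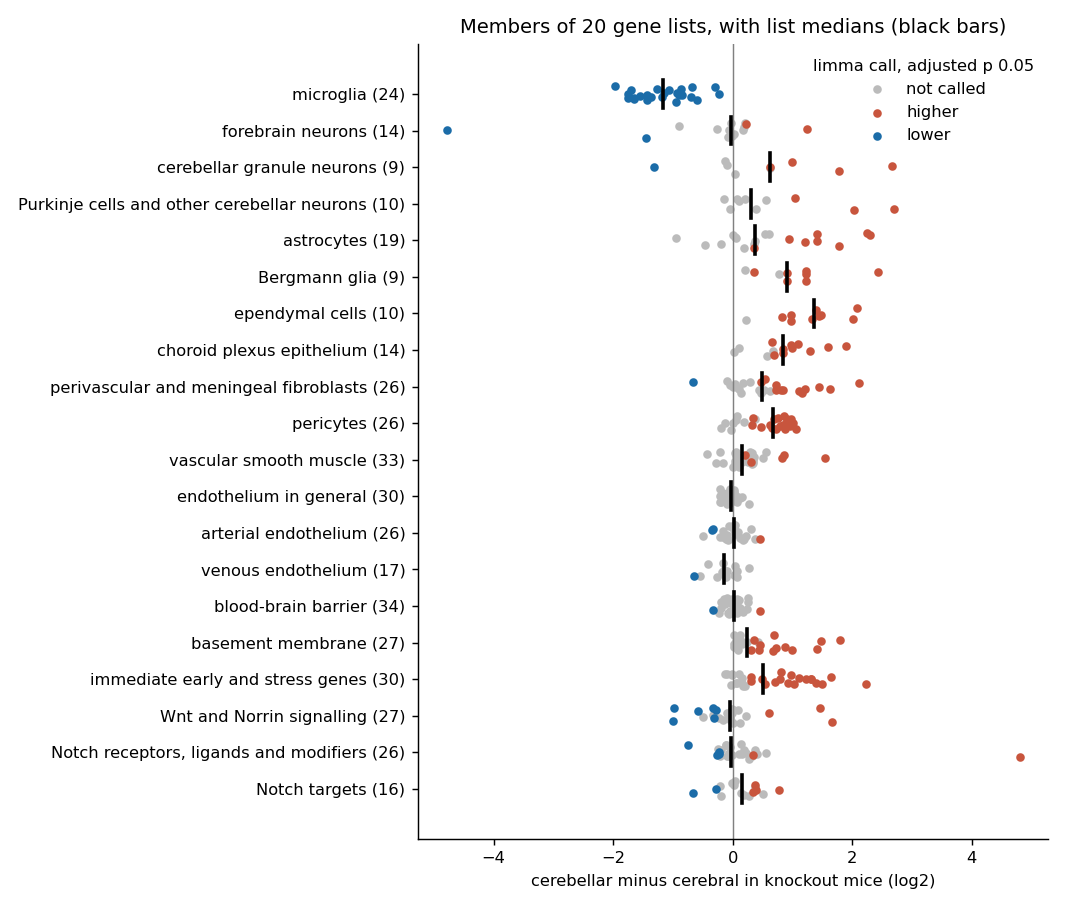
Cerebellar minus cerebral difference in knockout mice (log2, horizontal axis) of every tested member of 20 gene lists (points, coloured by limma call at an adjusted p of 0.05; number tested in brackets) with the list median (black bar). All 24 microglial markers lie below 0, the 30 endothelial markers are uncalled around 0, and the ependymal, pericyte and choroid plexus medians lie at 1.36, 0.67 and 0.84.

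The basement membrane list leaned to higher levels in cerebellar vessels. All 27 tested genes had a positive difference, 12 were called higher and 0 lower, and the median was 0.24. Lamb1, the laminin beta 1 chain, read 9.34, 9.42 and 9.38 in cerebral and 10.92, 10.82 and 10.83 in cerebellar arrays, a difference of 1.47 (SE 0.08, adjusted p = 0.000655) that far exceeded the spread between mice. The laminin alpha 2 gene Lama2 (1.41, SE 0.08) and the minor collagen IV chains Col4a4 (1.79, SE 0.22) and Col4a3 (0.99, SE 0.11) were higher too, while the major chains Col4a1 (0.16) and Col4a2 (0.18) were not called. Leaving out mouse 3 left 8 calls.

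Fibroblasts of the perivascular space and meninges share part of this matrix. Of 26 tested fibroblast markers 12 were called higher and 1 lower, with a median of 0.50. The proteoglycan gene Lum read 6.06, 7.39 and 5.85 in cerebral and 8.74, 8.62 and 8.28 in cerebellar arrays, a difference of 2.11 (SE 0.25, adjusted p = 0.00282). The retinaldehyde dehydrogenase gene Aldh1a1 (1.63, SE 0.14), the proteoglycan gene Dcn (1.44, SE 0.21) and the growth factor receptor gene Pdgfra (1.21, SE 0.17) followed. The collagen gene Col6a3 was called lower, at least 1.14-fold with all cerebellar arrays and 1 cerebral array dim, and not without mouse 3, and 8 markers were called without mouse 1. The summed level was 15.4 to 15.8 in cerebral and 16.0 in each cerebellar array.

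Ependymal cells, the ciliated cells that line the ventricles, were represented by 10 tested markers, of which 9 were called higher and 0 lower, with a median of 1.36. Ak7, an adenylate kinase of motile cilia, read 5.35, 7.15 and 6.01 in cerebral and 7.76, 8.69 and 8.28 in cerebellar arrays, a difference of 2.07 (SE 0.20, adjusted p = 0.00157), with mouse 2 the highest in both regions. The cilium genes Ccdc153 (2.02, SE 0.39), Dynlrb2 (1.48, SE 0.15) and Cfap126 (1.44, SE 0.17) were also higher, and Ccdc153 was not called without mouse 2 or without mouse 3. The summed level was 9.70 to 10.7 in cerebral and 10.9 to 11.9 in cerebellar arrays.

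Choroid plexus, the epithelium that secretes cerebrospinal fluid, was represented by 14 tested markers, of which 10 were called higher and 0 lower, with a median of 0.84. The bicarbonate transporter gene Slc4a5 read 8.21, 9.61 and 8.28 in cerebral and 10.36, 10.96 and 10.47 in cerebellar arrays, a difference of 1.90 (SE 0.22, adjusted p = 0.00277). Mouse 2 had the highest level of this gene in each region. The potassium channel subunit gene Kcne2 (1.60, SE 0.16), the homeobox gene Otx2 (1.30, SE 0.16) and Klotho, Kl (1.09, SE 0.21), were also higher, and Kl was not called without mouse 1 or without mouse 3. Ttr, which encodes the thyroid hormone carrier transthyretin and is the most abundant transcript of this epithelium, lay at 16.09 to 16.24 in the cerebral arrays, at 16.23 to 16.29 in the cerebellar ones, and was not called. Its level was the highest value of each knockout array, and whether a difference was compressed at the top of the range was not tested. Without mouse 1 or without mouse 3, 4 markers were called, and without the mouse block 3. The summed level, of which Ttr was the largest term, was 16.4 to 16.8 in cerebral and 16.8 to 17.0 in cerebellar arrays.

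The pericyte, fibroblast, ependymal and choroid plexus markers were thus higher in the same 3 mice, and some genes, such as Rarres2, stood in more than 1 of these lists. What part the levels of these other cell types play in the pericyte and basement membrane values was not tested.

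**Figure D4:**
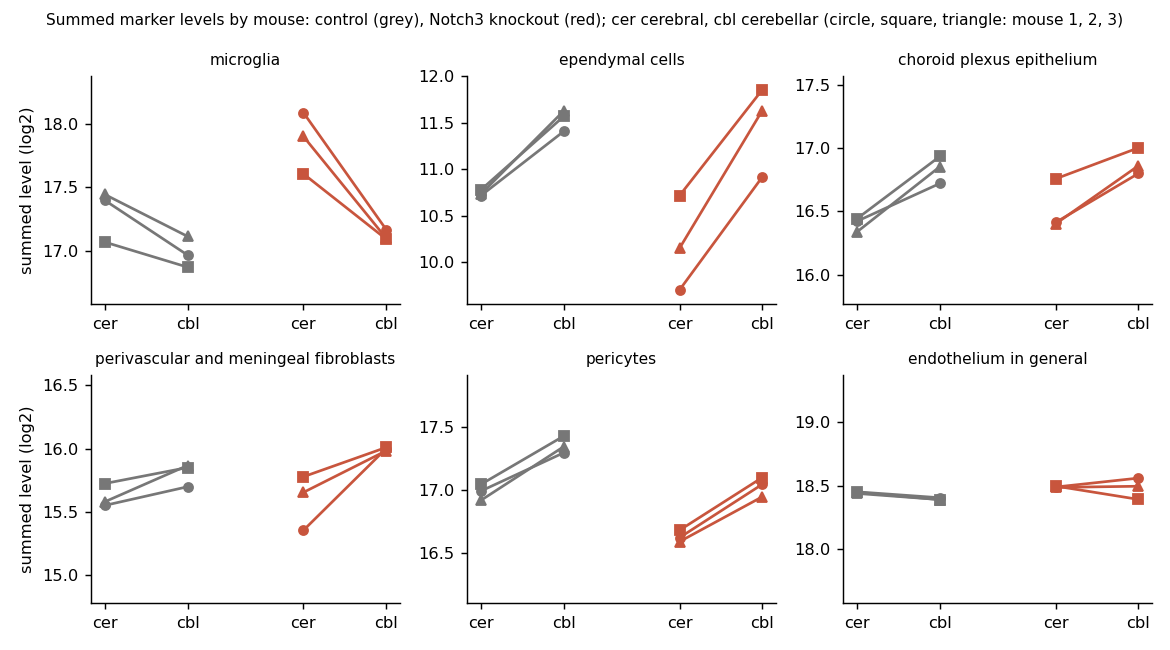
Summed level (log2 of the added linear values, vertical axis) of the tested markers of 6 cell types in cerebral and cerebellar arrays of control (grey) and knockout (red) mice, joined by mouse. Microglial sums lie at 17.6 to 18.1 in knockout cerebral and at 17.1 to 17.2 in knockout cerebellar arrays, the cerebellar sum is the higher in every mouse for ependymal cells and pericytes, and endothelial sums stay between 18.4 and 18.6 in the knockout.

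Astrocytes and the Bergmann glia of the cerebellum were represented by genes of end-feet and of radial fibres. Of 19 astrocyte markers 8 were called higher and 0 lower, with a median of 0.37. Aqp4, the water channel of end-feet, read 8.92, 8.52 and 9.79 in cerebral and 11.33, 11.26 and 11.38 in cerebellar arrays, a difference of 2.24 (SE 0.28, adjusted p = 0.0033) and 2.53 with another probe set. The cerebellar arrays agreed closely and the cerebral ones did not. The angiotensinogen gene Agt (2.30, SE 0.34), the bicarbonate transporter gene Slc4a4 (1.78, SE 0.20) and the folate enzyme gene Aldh1l1 (1.41, SE 0.15) were also higher, whereas the glutamate transporter genes Slc1a3 (-0.94) and Slc1a2 (-0.46) were negative and not called. Of 9 Bergmann glia markers 7 were higher, among them Timp4 (1.23, SE 0.19), Hopx (1.23, SE 0.10) and Gpr37l1 (1.22, SE 0.24), with a median of 0.91. Leaving out mouse 1 left 2 calls, and Gdf10, Timp4 and Gpr37l1 were among those lost. Gpr37l1 was not called without mouse 2 either.

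Many listed neuronal genes were not tested, and the tested ones ranged from dim to far above 3.27. Of 20 listed granule neuron genes 9 passed the filter on dim genes, and 4 of these were called higher, among them the transcription factor genes Neurod1 (1.79, SE 0.19) and Zic1 (0.62, SE 0.06), and Car10 (0.999, SE 0.20), while Il16, also an immune cytokine, was lower. Zic1 was bright in both regions, at 12.12, 12.46 and 12.03 in cerebral arrays, and what part granule neurons have in its level was not tested. Of 22 genes listed for Purkinje and other cerebellar neurons 10 were tested, and 3 were higher. The calcium-binding protein gene Calb1 read 3.01, 2.89 and 3.21 in cerebral and 4.83, 4.57 and 5.79 in cerebellar arrays, a difference of 2.02 (SE 0.30), at least 3.46-fold. Pcp2, a Purkinje cell gene, differed by 1.05 (SE 0.22), at least 1.51-fold. A gene that passed the filter only through the cerebellar arrays had to differ, so these counts describe the genes that could be tested. Without mouse 1, Car10 and Pcp2 were not called, nor was Car10 without mouse 3.

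Of 34 listed forebrain neuron genes 14 were tested, with a median of -0.02. Besides Ddn, Camk2a, the calcium-dependent kinase of forebrain synapses, was lower, at 3.61, 4.48 and 5.42 in cerebral and at most 3.09 in cerebellar arrays (difference -1.46, SE 0.31, adjusted p = 0.025), at least 2.35-fold. Ppp1r1b (1.24, SE 0.22), known from striatal neurons, and Wfs1 (0.23) were higher. In this list 1 to 2 genes were called when a knockout mouse was left out. Wfs1 was lost each time, Camk2a without mouse 2 or 3 and Ppp1r1b without mouse 1 or 3. Among 14 general neuronal genes 2 were called, against 14.7% of all genes, and both Uchl1 (1.18, SE 0.11) and Eno2 (0.96, SE 0.10) were higher. The summed level of that list was 10.9 to 11.3 in cerebral and 11.3 to 11.5 in cerebellar arrays. Of 7 oligodendrocyte lineage genes, Olig1 (1.003, SE 0.23) and Cspg4 (0.87, SE 0.06), which pericytes carry too, were higher and the myelin gene Mobp (-1.14, SE 0.28) was lower. Mobp was not called when any 1 knockout mouse was left out, nor Olig1 without mouse 1 or 2.

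Receptor subunit families, grouped after their values were seen, gave 2 of 3 AMPA receptor genes and 3 of 5 GABA-A receptor genes higher. Gabra2 was higher by 2.01 (SE 0.48) and Gabra4 by 0.63 (SE 0.07), whereas Gria2 (0.13), low in all knockout arrays at 3.78 to 4.11, was not called. Gabra2 lost its call when any 1 knockout mouse was left out. How far attached nerve endings carry these values was not tested.

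Notch pathway genes were read in vessels that lacked the receptor in both regions. Among 26 tested receptors, ligands and modifiers 2 were called higher and 4 lower, against 8.5% and 6.21% of all genes. The median was -0.03. Apart from Dlk1, the canonical ligand gene Dll1 was higher (0.34, SE 0.09), and the ubiquitin ligase gene Dtx4 (-0.75, SE 0.14), the endocytic inhibitor gene Numb (-0.27, SE 0.06), the glycosyltransferase gene Mfng (-0.23) and the shedding protease gene Adam17 (-0.22) were lower. The receptors Notch1 (0.16), Notch2 (-0.25) and Notch4 (0.18) and the ligands Jag1 (-0.08) and Dll4 (0.22) were not called. Leaving out any 1 knockout mouse left 2 calls in this list. Dll1, Numb, Mfng and Adam17 were lost each time, and Dtx4 without mouse 3.

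Of 16 tested Notch target genes 4 were higher and 2 lower, against 8.5% and 6.21% of all genes, with a median of 0.16. Gucy1a1, a subunit of the nitric oxide receptor guanylate cyclase, read 10.40, 10.42 and 10.30 in cerebral and 11.23, 11.14 and 11.08 in cerebellar arrays, a difference of 0.77 (SE 0.06, adjusted p = 0.00102). The repressor genes Heyl (0.38, SE 0.09) and Hes6 (0.39, SE 0.06) were higher and Hes5 (-0.66, SE 0.16) was lower, and Hes1 (0.13), Hey1 (0.02) and Nrarp (0.04) were not called. Heyl lost its call when any 1 knockout mouse was left out and Hes5 without mouse 1 or without mouse 3, and the list held 2 calls without mouse 3 and 3 without mouse 1.

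Wnt signals from glia induce and keep the blood-brain barrier. Of 27 tested genes of Wnt and Norrin signalling 3 were higher and 6 lower, against 8.5% and 6.21% of all genes. The list median was -0.05. The secreted Wnt antagonist genes Sfrp2 (1.65, SE 0.15) and Sfrp1 (1.46, SE 0.15) were higher, whereas Dkk3 (-0.99, SE 0.21), the Wnt agonist gene Rspo3 (-0.58, SE 0.09) and Fgfbp1 (-0.99, SE 0.11, at least 1.50-fold lower) were lower. The receptor Fzd4 (-0.23) and the readout genes Lef1 (-0.16) and Axin2 (-0.05) were not called. Leaving out mouse 2 or mouse 3 left 5 calls, and Dkk3 was not called without mouse 1.

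Several growth factor receptors of mural cells and fibroblasts were higher. Of 24 genes of PDGF, VEGF and angiopoietin signalling 5 were called higher, against 8.5% of all genes, and 0 lower. Besides Pdgfrb and Pdgfra they included the placental growth factor gene Pgf (1.03, SE 0.10) and the sphingosine phosphate receptor gene S1pr3 (0.57, SE 0.05). The ligand genes Pdgfb (-0.18) and Vegfa (0.47) were not called. Of 32 genes of TGF-beta and BMP signalling 7 were higher and 3 lower, against 8.5% and 6.21% of all genes. The median of this list was 0.02. Ltbp3, which stores latent TGF-beta in matrix, was higher by 1.08 (SE 0.10), Bmp5 by 0.96 (SE 0.07) and Bmp7 by 1.06 (SE 0.16), at least 1.36-fold, while the receptor gene Tgfbr1 (-0.77, SE 0.12) and the signal transducer genes Smad3 (-0.34) and Smad1 (-0.23) were lower. Leaving out mouse 1 left 5 calls in this list and ended those of Gdf10, Bmp7, Tgfbr1, Smad3 and Smad1, the last of which was lost without mouse 2 or 3 as well.

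Genes that carry positional identity were mostly higher where they were called. Of 35 tested transcription factors of this kind, among 79 listed, 10 were higher and 1 lower, against 8.5% and 6.21% of all genes. Their median was 0.08. Besides Otx2 and Zic1, the forkhead gene Foxs1 (0.86, SE 0.10) and the T-box gene Tbx2 (0.77, SE 0.09) were higher, and Tfap2a (-0.86, SE 0.14) was lower. Without mouse 3 the list held 7 calls and without the mouse block 4, and Tfap2a was not called without mouse 1. Of 13 retinoid genes 5 were called, against 14.7% of all genes. Besides Aldh1a1, the retinol dehydrogenase gene Rdh5 (0.95, SE 0.16) and the retinoic acid hydroxylase gene Cyp26b1 (0.91, SE 0.17) were higher. The retinol-binding protein receptor gene Stra6 (-0.73, SE 0.15) was lower. But 1 of the 5 calls was left without mouse 1 or without mouse 3, and 3 without mouse 2.

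Among 36 axon guidance genes, which also steer vessels, 6 were higher and 4 lower, against 8.5% and 6.21% of all genes. The semaphorin gene Sema3b read 6.30, 6.93 and 6.50 in cerebral and 8.60, 9.36 and 8.36 in cerebellar arrays, a difference of 2.20 (SE 0.25, adjusted p = 0.00237), and Slit2, the ligand of Robo receptors, was higher by 1.97 (SE 0.22). The class 4 semaphorin genes Sema4d (-1.01, SE 0.17) and Sema4b (-0.99, SE 0.17) were lower, and 5 genes of the list were called without mouse 3 and 6 without mouse 1. Sema4d was not called in either. Hypoxia and glycolysis genes gave 2 calls of 19, against 14.7% of all genes, Pgk1 higher (0.29) and Hk2, a hexokinase, lower (-0.90, SE 0.16), with a median of 0.03 and 0 calls without mouse 1 or without mouse 3. Pgk1 was not called without mouse 2 either, and without the mouse block limma called 0 of the list, with 4 at an unadjusted p below 0.05. Sex-linked transcripts, which the pairing by mouse cancels, gave 0 calls of 4 by limma, and none had an unadjusted p below 0.05.

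The regional pattern of knockout vessels was then set beside that of littermate controls. In control mice limma called 915 of the same 11716 genes (7.81%), 647 higher (5.52%) and 268 lower (2.29%). Both genotypes called 661 genes, 660 of them in the same direction, which were 38.4% of the knockout calls and 72.2% of the control calls. Across all tested genes the regional differences correlated with r = 0.766, a description across genes that are not independent replicates. Over the genes called in the knockout, a choice that favours large knockout values, the median size of the difference was 0.57 in the knockout and 0.32 in controls. Over all tested genes it was 0.105 and 0.0987, and 55.8% of the control calls were larger in controls. The knockout and control differences were 4.80 and 3.09 for Dlk1, 4.25 and 3.91 for Cxcl2 and -4.79 and -4.19 for Ddn.

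The difference between the genotypes was tested itself, and limma called 4 genes (0.0341%), with 1214 genes (10.4%) at an unadjusted p below 0.05. Glrp1 read 7.38, 7.39 and 7.29 in knockout cerebral and 5.20, 4.98 and 4.75 in knockout cerebellar arrays, against 4.39, 4.35 and 4.73 and 3.72, 3.64 and 4.42 in controls. Its regional difference was -2.38 in the knockout and -0.57 in controls, which differ by -1.81 (SE 0.14, adjusted p = 0.023). Slc16a7, a monocarboxylate transporter gene, read 6.96, 6.56 and 7.21 in knockout cerebral and 5.91, 5.65 and 6.11 in knockout cerebellar arrays, while its control arrays all lay between 6.90 and 7.23. Its regional differences, -1.02 and 0.01, differ by -1.03 (SE 0.09, adjusted p = 0.0279).

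The other 2 called genes passed the filter only through the control cerebellar arrays, where they are high, so their calls are no independent support for a difference. Dpt, a matrix protein of fibroblasts, read 2.39 to 2.44 in the 6 knockout arrays, and its control arrays read 2.37 to 2.41 in the cerebrum and 3.63 to 3.66 in the cerebellum. Ebf2, a transcription factor gene, read 2.30 to 2.34 in the knockout, with control cerebellar values of 3.52 to 4.02. With every array raised to 3.27, knockout minus control was -0.38 for Dpt and -0.44 for Ebf2. The 4 calls were all lost when any 1 knockout mouse was left out, and also without control mouse 3. Slc16a7 was also not called without control mouse 1 or 2, nor with no mouse block (adjusted p = 0.849 by limma), with the mouse as a random block (0.103), with trend and robust variances (0.0834) or with arrays centred on their medians (0.0511). Glrp1 was not called without control mouse 1 or 2 or with no mouse block (adjusted p = 0.0993 by limma). Some other filters and probe set choices ended both calls too, while the mean of probe sets kept them (limma's adjusted p = 0.0219 for Glrp1 and 0.0238 for Slc16a7). With no filter limma's adjusted p was 0.135 for Glrp1 and 0.0899 for Slc16a7. With every probe set on its own it was 0.0553 and 0.0593, and with the filter on knockout arrays 0.0512 for both.

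Genes next in p, given as values, were Gabra6 (2.66 in the knockout and 1.26 in controls, limma's adjusted p for the difference 0.0621), H2-DMa (-0.77 and 0.06), Dmp1 (2.69 and 0.35), the dim gene Zfpm2 (0.03 and 0.77), Spon1 (1.20 and 0.02) and Il7r (-1.38 and -0.17). For Dmp1 the knockout cerebral arrays, at 4.83 to 5.60, lay below all others, which ranged from 7.50 to 8.25. The regional difference of microglial markers was the more negative in the knockout for 24 of 24 genes, with an unadjusted p below 0.05 for 21 against 10.4% of all genes, but 0 of them were called. The median of the microglial list was -1.17 in the knockout and -0.55 in controls. For choroid plexus the medians were 0.84 and 1.12, and the knockout difference was the smaller in 14 of 14 genes, none of which had an unadjusted p below 0.05 for the difference between genotypes. Members of a list are measured in the same mice and can move together. These counts are therefore no independent replicates of a difference between genotypes.

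**Figure D5:**
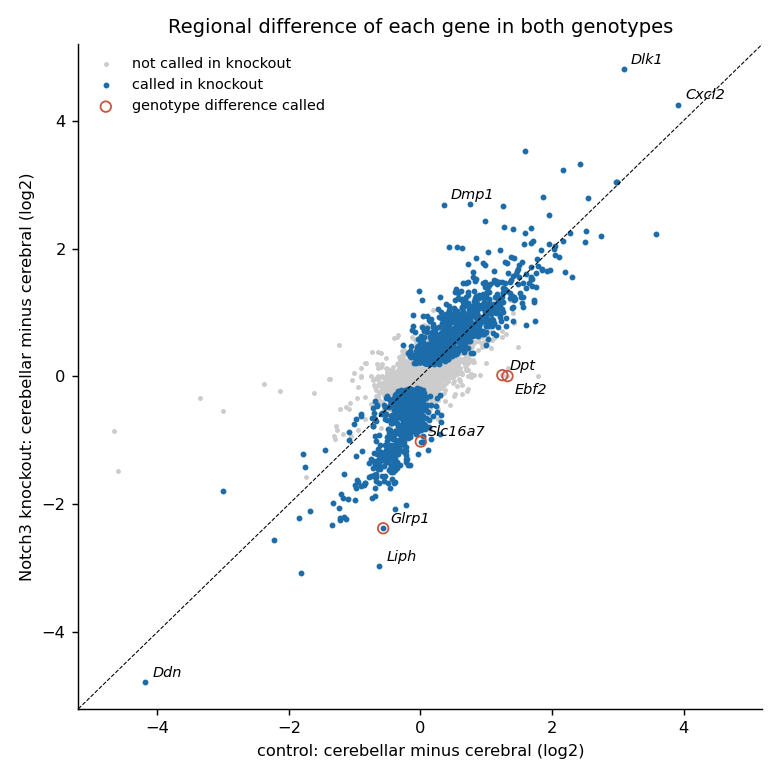
Cerebellar minus cerebral difference (log2) of each of the 11716 tested genes in controls (horizontal axis) and Notch3 knockout mice (vertical axis), with genes called in the knockout in blue, the 4 genes whose difference between genotypes was called circled, and a dashed line of equal values. Most called genes keep their sign in both genotypes (r = 0.766 across all genes), and Dpt and Ebf2, above 3.27 only in the control cerebellum, lie near 0 in the knockout and above 1 in controls.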

How the data were processed

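Expression was measured on Affymetrix mouse arrays. The deposited values are log2 levels of 45101 probe sets that the authors made with GCRMA 2.32.0, per the submitters' processing notes, and they were used as given. Each gene was read from the probe set with the highest mean over the 12 arrays among the 34958 that name exactly 1 gene, and 932 probe sets that name several genes and 9211 with no gene were left out. Genes with at least 3 of 12 arrays above 3.27, the median of all values, were tested, which left 11716.

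limma 3.58.1 in R 4.3.3 was fitted to all 12 arrays with the mouse as a block and a region term per genotype (lmFit and eBayes, 4 residual degrees of freedom, Benjamini-Hochberg adjustment over all genes), after the code was tested on simulated data. The region difference in each genotype and the difference between them were read from that fit. Replicate numbers were taken as mice. The arrays of the same number deviated together (r = 0.573, 0.705 and 0.601 in the knockout, 0.371, 0.495 and 0.547 in controls), and each array correlated best with its own number. Array number limits the precision of every value.

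The members of the comparison and the 35 gene lists (838 genes, 784 on the array, 625 tested) were chosen with earlier results of these data known. Named genes were the 15 highest and 15 lowest called genes whose groups do not overlap, up to 4 called genes per list with the largest difference (with no call, the smallest p) and the 10 genes with the smallest p for the genotype difference. Other genes, and the 7 families said to be grouped after their values were seen, were chosen after their values were seen. Clone names were not given. "At least" folds raise dim arrays to 3.27. The alternatives were other blocks, filters, probe set choices, scalings and variance models, and leaving out each mouse.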

Additional observations from a re-analysis of the deposited data

Results flagged for a closer look

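For 4 genes the regional difference was called unequal between knockout and control mice by limma's test of that difference. Knockout minus control was -1.23 for Dpt, -1.32 for Ebf2, -1.81 for Glrp1 and -1.03 for Slc16a7 on the log2 scale. Dpt and Ebf2 were dim in all knockout arrays and above 3.27 only in the control cerebellum, through which alone they passed the filter. Their values are taken against arrays near background, and with every array raised to 3.27 they were -0.38 and -0.44. By contrast, Glrp1 and Slc16a7 lay above 3.27 in every array of both genotypes, though their calls were lost under several alternatives given above. The control levels of Glrp1, also given above, were low, and whether this made its control difference smaller was not tested.

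For 3 further named genes every knockout pair moved one way and every control pair the other. Dtx4 differed between regions by -0.75 in the knockout, H2-DMa by -0.77 and Oas1a by 0.30, against 0.06, 0.06 and -0.03 in controls. Limma's test of the difference gave adjusted p = 0.301, 0.0744 and 0.301, so none of these was called unequal between genotypes.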

How the results depend on the processing

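Read from the probe set used throughout, no called gene named in the text changed direction under an alternative that kept it, while other probe sets of Trem2 (0.06) and Kcnma1 (0.01) were positive and not called. The 1723 genes called in the knockout became 797 with no replicate block and 848 to 1681 when 1 mouse was left out, and lay within 1.5 times of that count under each other alternative (1321 to 2447). The 915 control calls became 268 with no replicate block, 603 without the filter on dim genes and 333 to 784 without 1 mouse. The 4 calls for the difference between genotypes became 7 with the mouse as a random replicate block, with Slc16a7 lost (adjusted p = 0.103 by limma), 5 with no replicate block, with Slc16a7 (0.849) and Glrp1 (0.0993) lost, 1 with no filter, 1 with every probe set on its own, 0 with the filter at the 75th percentile, 0 with the filter on knockout arrays, and 0 to 3 without 1 mouse. The filter on knockout arrays removes Dpt and Ebf2 by construction, and otherwise the cause was not tested. Of 132 called genes named by the rule, 91 were called without the block, 119 with the random block, 112 with the 6 knockout arrays only, 109 with no filter and 97, 110 and 99 without knockout mouse 1, 2 and 3. Without the block 20 of 42 lists held fewer calls by over 1.5 times. With 3 mice per genotype and GCRMA values near the median of all values, dim genes give only lower bounds on a difference.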
